A study of Mus musculus with 2 samples.

Results

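The genes described here are the surfactant protein genes Sftpc, Sftpa1, Sftpb and Sftpd, which are 4 of the 11407 genes listed in the count tables of the series. They were taken by their gene symbols, and all 4 were listed in both tables. Their levels were described in alveolar type 2 (AT2) cells, taken as the cell barcodes in which Sftpc made up at least 5% of the transcript molecules (unique molecular identifiers, UMIs), and in all other barcodes of the same library. The level of Sftpc in AT2 barcodes is therefore partly set by how they were chosen, and it is given as a description.

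The series holds 2 single-cell libraries of mouse lung cells, titled niche cells and distal lung cells. Both were sorted as cells lacking CD45, the surface protein of leukocytes, 7 days after Labelling-4T1 cells had been injected into a vein. 4T1 is a mouse mammary carcinoma line, and the labelling variant passes a fluorescent protein to cells near it. Both groups came from injected mice, with no uninjected lung among them, and the labels do not give the strain, the age, the number of animals or the gate that separated niche from distal cells. There was 1 library per group, so no test between niche and distal cells was possible, no difference had a replicate check, and every interval below covers counting error only.

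Surfactant is a film of phospholipid and protein that AT2 cells store in lamellar bodies and secrete to lower surface tension in the alveoli. Surfactant proteins B and C are small hydrophobic proteins, cut from larger precursors, that help phospholipid spread at the air-liquid interface. Surfactant proteins A and D are collectins, secreted lectins with a collagen-like stretch that bind sugars on microbes.

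In mm10, Sftpc is a protein-coding gene on the minus strand of chromosome 14 (chr14:70520949-70524081, ENSMUSG00000022097). Sftpa1 lies on the plus strand of the same chromosome (chr14:41131782-41136452, ENSMUSG00000021789), and Sftpd, the other collectin gene, lies 35761 bases away on the minus strand (chr14:41172214-41185149, ENSMUSG00000021795). Sftpb is on the plus strand of chromosome 6 (chr6:72304610-72314371, ENSMUSG00000056370). No other annotated gene overlapped any of the 4.

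The promoter windows of Sftpa1, a collectin gene, and Sftpb, a hydrophobic protein gene, are shown as those of the members found in the RefSeq table used. They hold the 250 bases before the RefSeq gene start on the plus strand of GRCm38.p6, at chr14:41131538-41131787 for Sftpa1 and chr6:72304360-72304609 for Sftpb. Capitals mark CTCAAG, the core of known sites for the lung transcription factor NKX2-1, and the run CTATAA, which resembles the box that places transcription starts.
Sftpa1: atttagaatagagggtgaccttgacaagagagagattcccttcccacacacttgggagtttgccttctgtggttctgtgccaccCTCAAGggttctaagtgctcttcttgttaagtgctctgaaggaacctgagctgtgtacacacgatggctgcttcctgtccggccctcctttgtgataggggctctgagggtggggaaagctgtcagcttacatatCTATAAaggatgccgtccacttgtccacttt
Sftpb: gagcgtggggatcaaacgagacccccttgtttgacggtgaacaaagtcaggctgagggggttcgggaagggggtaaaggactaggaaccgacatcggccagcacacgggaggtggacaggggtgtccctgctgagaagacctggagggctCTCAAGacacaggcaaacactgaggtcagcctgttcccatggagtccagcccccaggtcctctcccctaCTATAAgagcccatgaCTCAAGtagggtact
CTCAAG was found 1 time in the Sftpa1 window and 2 times in the Sftpb window, and CTATAA was found 1 time in each. On either strand, CTCAAG or its complement CTTGAG occurred in 13.3% of 32851 RefSeq promoter windows of 250 bases, and CTATAA or its complement TTATAG in 7.26%. The matches are a description of these letters, and no binding was measured in the series.

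The niche table held 1473 barcodes with 5283584 UMIs (1245 to 9784 per barcode), and the distal table held 1996 barcodes with 4791701 UMIs (685 to 7051 per barcode). AT2 barcodes numbered 16 in the niche library, or 1.09% of barcodes (exact 95% binomial interval 0.622 to 1.76%), and 215 in the distal library, or 10.8% (9.44 to 12.2%). They held 1.72% of the niche UMIs and 22.8% of the distal UMIs, and the sort can set both shares. Of 10 other AT2 markers, AT2 barcodes carried a median of 9 in either library, and other barcodes a median of 0. At least 5 of these markers were found in all 16 niche and in 214 of 215 distal AT2 barcodes, so the label held by markers that did not choose the barcodes. Markers of other cells were also present: at least 3 endothelial, mesenchymal or immune markers were detected in 2 niche and 57 distal AT2 barcodes. The summed level of 12 endothelial markers in AT2 barcodes was 264 UMIs per 1000000 UMIs (CPM) in the niche and 626 CPM in the distal library, against 4635 and 13532 CPM in the other barcodes. Median mitochondrial shares of AT2 barcodes were 3.05% in niche and 2.94% in distal barcodes, and median Malat1 shares were 2.83% and 2.39%. The libraries shared 7 barcode sequences, of which 0 were AT2 barcodes. Doublets were not called.

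**Figure D1:**
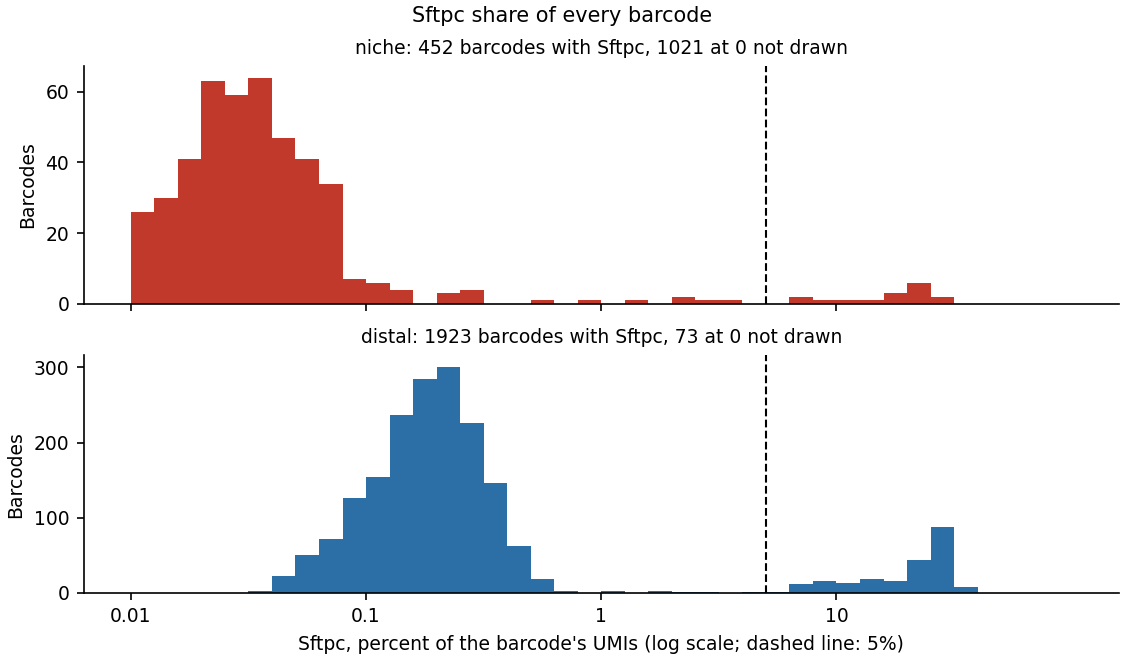
Histograms of the Sftpc share of each barcode's UMIs (log scale) in the niche library (top) and the distal library (bottom), with the 5% limit as a dashed line. In both libraries few barcodes lie between 1 and 5% (5 niche and 7 distal), and the bulk of distal barcodes lies at a higher share than the bulk of niche barcodes; 1021 niche and 73 distal barcodes without a Sftpc UMI are not drawn.

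The 5% limit fell in a sparse stretch of the distribution, as the plot of Sftpc shares shows. The niche barcodes nearest to it had 6.46% inside and 3.54% outside, and the distal barcodes had 5.63% inside and 4.15% outside. Between 1 and 5% there were 5 niche and 7 distal barcodes. Of the niche ones, 4 carried 7 to 11 of 12 endothelial markers and fell in the endothelial class. The other niche one was epithelial, with 97 UMIs of Sftpc, 26 of Sftpb, 3 of Sftpa1 and 2 of Sftpd. Its 3.73 Sftpc UMIs per Sftpb UMI lay below the lowest AT2 barcode of either library (10.7 in niche and 5.21 in distal barcodes). Since Sftpc chose the AT2 barcodes, a low value of this ratio is favoured outside the limit. The 26 Sftpb UMIs lay within the counts of niche AT2 barcodes (8 to 123).

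One distal barcode below the limit was rich in collectin transcripts. It held 263 UMIs of Sftpa1 and 89 of Sftpd beside 157 of Sftpc and 58 of Sftpb, in 5856 UMIs. That is 168 Sftpa1 UMIs per 100 of Sftpc, where AT2 barcodes reached at most 22.5 in niche and 42.2 in distal barcodes. AT2 barcodes were chosen for high Sftpc, so a high ratio over Sftpc is favoured in a barcode below the limit. The Sftpa1 and Sftpd counts of this barcode did not exceed the highest ones of distal AT2 barcodes (336 and 89 UMIs). It carried 8 of 10 AT2 markers and 8 of 12 epithelial markers, and 1 UMI of the club cell gene Scgb1a1. It fell in the airway secretory class by its markers. This barcode was singled out after its values were seen, and it touches the distal values for other barcodes given further on.

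Within AT2 barcodes, Sftpc, the precursor of surfactant protein C, was the most abundant of 6935 genes by UMIs in both libraries. UMIs from transcript 3′ ends count molecules and carry no length term. Sftpc summed to 182096 CPM (exact 95% Poisson interval 179332 to 184892) over the 16 niche barcodes and 228006 CPM (227111 to 228904) over the 215 distal barcodes. Its share of a barcode's UMIs ran from 6.46% through a median of 18.7% to 26.2% in the niche, and from 5.63% through 24.2% to 35.1% in the distal library. The ranges overlapped throughout, 3 of 16 niche barcodes lay above the distal median, and 0 of 16 above the distal upper quartile. The log2 ratio of niche over distal was -0.32 (exact 95% conditional binomial interval -0.35 to -0.30).

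Sftpb encodes surfactant protein B, without which lamellar bodies do not form properly. It summed to 10113 CPM (9469 to 10788) in niche and 12556 CPM (12346 to 12768) in distal AT2 barcodes, ranks 7 and 5 by UMIs. Its share ran from 0.142% through a median of 1.04% to 1.60% in the niche and from 0.108% through 1.19% to 2.42% in the distal library. Of the niche barcodes, 5 of 16 lay above the distal median and 1 above the distal upper quartile. The log2 ratio was -0.31 (-0.41 to -0.22), close to that of Sftpc.

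Sftpa1 encodes surfactant protein A and ranked 3 by UMIs in both libraries, with 22129 CPM (21173 to 23118) in niche and 26418 CPM (26114 to 26725) in distal AT2 barcodes. Its share ran from 0.616% through a median of 2.07% to 4.22% in the niche and from 0.216% through 2.46% to 5.45% in the distal library. Niche barcodes above the distal median numbered 7 of 16, and 2 lay above the upper quartile. The log2 ratio was -0.26 (-0.32 to -0.19), within the spread of shares among barcodes of either library.

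Sftpd, the gene of surfactant protein D, differed from the other 3 in direction. It summed to 5997 CPM (5504 to 6523) in niche and 4158 CPM (4038 to 4281) in distal AT2 barcodes, ranks 14 and 17. Its share ran from 0.102% through a median of 0.640% to 1.18% in the niche and from 0% through 0.343% to 1.63% in the distal library, where 1 of 215 barcodes had no Sftpd UMI. The ranges overlapped fully, but 12 of 16 niche barcodes lay above the distal median and 9 above the distal upper quartile. The log2 ratio was 0.53 (0.40 to 0.66), and it was positive in each of 10 alternative values, between 0.33 and 0.61. Without the barcodes that carried at least 3 markers of another cell class it was 0.44.

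**Figure D2:**
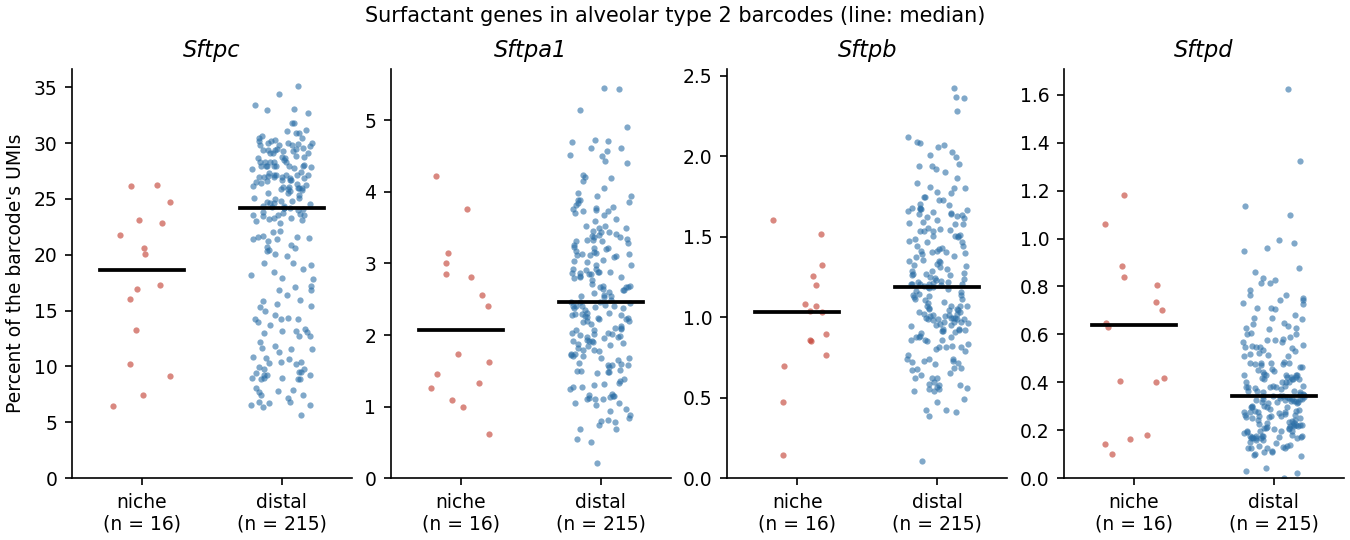
Share of each AT2 barcode's UMIs (percent, linear axes from 0, a different range per gene) for Sftpc, Sftpa1, Sftpb and Sftpd, with niche barcodes (n = 16) left of distal barcodes (n = 215), each point 1 barcode and the line the median. The medians of Sftpc, Sftpa1 and Sftpb lie lower in the niche, that of Sftpd lies higher in the niche (0.640% against 0.343%), and all ranges overlap.

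These differences were set beside those of other genes in the same barcodes. Among 1163 genes with at least 100 UMIs over both libraries the median log2 ratio was 0.11. Relative to it Sftpc stood at -0.44, Sftpa1 at -0.37, Sftpb at -0.42 and Sftpd at 0.42. Of those genes, 19.4% had a lower ratio than Sftpc and 21.8% a higher ratio than Sftpd. Genes with few niche UMIs have wide intervals, such as Plin2 with 13 niche and 185 distal UMIs (-1.18 to 0.57). Part of the spread of ratios is thus counting error, and its part in these 2 shares was not tested. Since the 4 genes fill a large share of all UMIs, ratios were also taken per UMI outside them, which gave -0.42 for Sftpc, -0.35 for Sftpa1, -0.41 for Sftpb and 0.43 for Sftpd. On this scale the median of the 1163 genes was 0.02.

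The 4 genes made up different mixtures within AT2 barcodes of the libraries. Sftpd took 2.72% (exact 95% binomial interval 2.50 to 2.96%) of the UMIs of the 4 genes in the niche and 1.53% (1.49 to 1.58%) in the distal library. Sftpa1 took 10.04% (9.63 to 10.5%) and 9.74% (9.64 to 9.85%), and Sftpb took 4.59% (4.30 to 4.89%) and 4.63% (4.56 to 4.71%), with intervals that overlapped for both. Sftpc took 82.6% (82.1 to 83.2%) in the niche and 84.1% (84.0 to 84.2%) in the distal library. In single barcodes the median was 27.9 Sftpd UMIs per 100 Sftpa1 UMIs in the niche (3.78 to 119) and 14.4 in the distal library (0 to 54.8). The median of Sftpc UMIs per Sftpb UMI was 16.9 in niche and 17.9 in distal barcodes.

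The genes varied among AT2 barcodes far more than counting error gives. The coefficient of variation of Sftpc was 0.377 in niche and 0.363 in distal barcodes, where counting alone gives 0.0296 and 0.0271. That of Sftpb was 0.376 and 0.361, against 0.138 and 0.131 from counting. Sftpa1 varied by 0.487 in niche and 0.418 in distal barcodes (counting 0.0928 and 0.0895). The widest of the 4 was Sftpd, at 0.578 in niche and 0.604 in distal barcodes (counting 0.180 and 0.228).

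Across the 215 distal AT2 barcodes the members moved together in pairs. The collectin genes Sftpa1 and Sftpd had a Spearman correlation of 0.71, and the hydrophobic protein genes Sftpc and Sftpb one of 0.69, on UMIs per 1000 UMIs outside the 4 genes. Pairs across these kinds were lower, from 0.40 for Sftpb with Sftpd to 0.59 for Sftpc with Sftpa1. These barcodes share 1 library, and each gene also went up with a barcode's total UMIs (0.39 to 0.55). Among the 108 barcodes at or above the median total, where these correlations with the total lay between -0.003 and 0.15, Sftpa1 with Sftpd was 0.65 and Sftpc with Sftpb 0.47, and the pairs across kinds were 0.15 to 0.35. Over the 16 niche barcodes the order was another: Sftpa1 with Sftpb had 0.79, Sftpc with Sftpb 0.63, Sftpa1 with Sftpd 0.36 and Sftpc with Sftpd -0.12. Correlations over so few barcodes are imprecise, and the difference between the libraries was not tested. All these values share the same denominator, UMIs outside the 4 genes, and its part in them was not tested. Per 1000 of all UMIs, the distal values were 0.65 for Sftpa1 with Sftpd and 0.55 for Sftpc with Sftpb. The pairs across kinds were then 0.24 to 0.40.

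**Figure D3:**
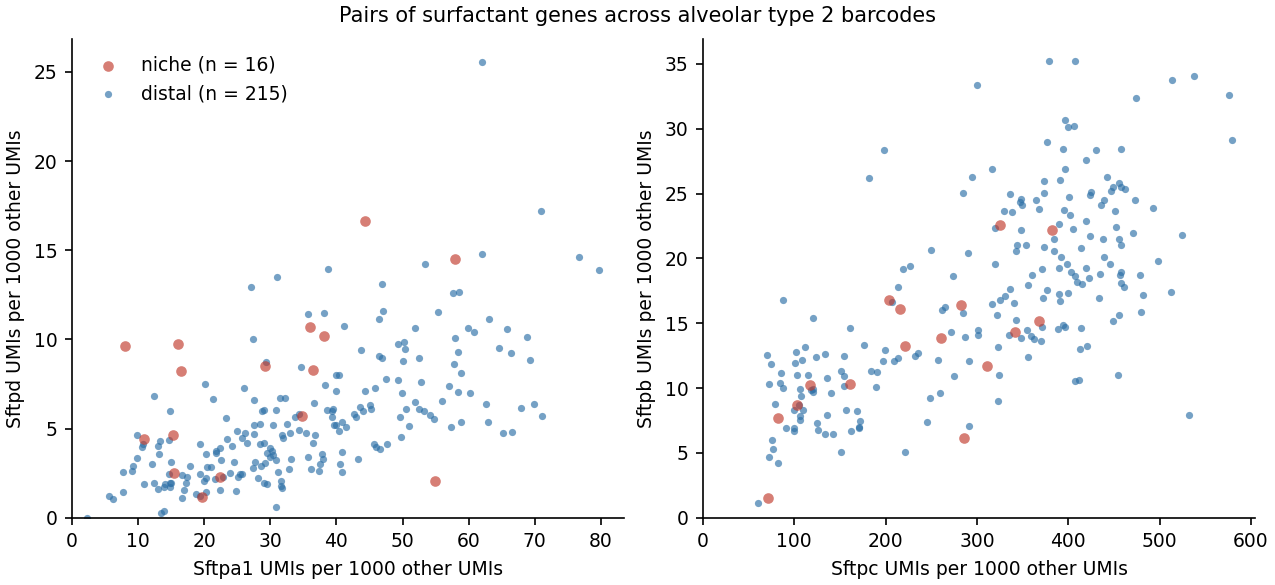
UMIs per 1000 UMIs outside the 4 genes in AT2 barcodes, Sftpd against Sftpa1 (left) and Sftpb against Sftpc (right), each point 1 barcode of the niche (n = 16) or distal (n = 215) library. In the distal library both pairs go up together (Spearman 0.71 and 0.69), and several niche points lie above the distal ones in Sftpd at the same Sftpa1.

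Genes that work with surfactant were taken from a list of 84, of which 70 were measured in both libraries with at least 10 UMIs. A gene was counted as higher or lower when its level differed at least 2-fold and the interval excluded equality. Of the 70, 6 were higher in niche than in distal AT2 barcodes and 3 were lower, with a median log2 ratio of 0.26. Among all 6935 genes measured, 4.21% were higher and 0.75% lower by the same rule, with a median of 0.30. These shares are also the ones to set beside the counts for each part of the list below, which rest on few genes. None of the 4 surfactant protein genes passed the 2-fold limit.

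Genes that mature and package surfactant protein were not among those counted. Of 10 measured genes of processing and secretion, 0 were higher and 0 lower, with a median log2 ratio of 0.05. Napsa and Ctsh, proteases that cut the precursors of surfactant proteins B and C, stood at -0.03 (-0.25 to 0.18) and 0.61 (0.29 to 0.90). The lamellar body lipid transporter gene Abca3 stood at 0.03 (-0.46 to 0.45), and the lamellar body membrane gene Lamp3 at 0.25 (-0.15 to 0.62). Of 9 measured transcription factor genes 1 was higher, Stat3 at 1.26 (14 niche and 72 distal UMIs). Nkx2-1, the lung regulator of surfactant genes, stood at 0.06 (-0.62 to 0.62), Cebpa at -0.29 (-1.10 to 0.36) and Etv5 at -0.05 (-0.67 to 0.47). Foxa2 was not in both tables, so no ratio was taken.

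The list of endoplasmic reticulum load held 16 measured genes, chaperones and disulfide isomerases as well as stress regulators and a degradation gene. Of these, 4 were higher and 1 lower, with a median log2 ratio of 0.69. The calcium-binding chaperone gene Calr had 462 CPM in niche and 179 CPM in distal AT2 barcodes, a log2 ratio of 1.39 (0.85 to 1.86). The disulfide isomerase genes Pdia6 and Pdia4 stood at 1.06 and 1.26, and Manf, a secreted endoplasmic reticulum stress gene, at 1.034. Dnajb9, a co-chaperone gene, was lower at -1.51, on 4 niche and 153 distal UMIs. The stress transcription factor genes were not counted in either direction, with Ddit3 at -0.53 (-3.93 to 1.10), Atf4 at -0.24 (-1.28 to 0.54) and Xbp1 at -0.42 (-1.86 to 0.57). Per UMI outside the 4 surfactant genes, Pdia6 at 0.97 and Manf at 0.94 no longer passed the 2-fold limit, which left 2 higher genes of the 16 (Calr and Pdia4) and 4 of the whole list. The all-gene shares of 4.21% and 0.75% are per all UMIs. No such share was taken on the scale outside the 4 genes, so these 2 counts have no direct comparison.

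Among 23 measured genes of phospholipid and fatty acid supply 1 was higher and 0 lower. It was Scd1, a fatty acid desaturase gene, with 5227 CPM in niche and 1421 CPM in distal AT2 barcodes and a log2 ratio of 1.88 (1.73 to 2.03). Of 10 small secreted and host defence genes 0 were higher and 2 lower. The lysozyme gene Lyz1 had 2960 CPM in niche and 10763 CPM in distal AT2 barcodes, a log2 ratio of -1.86 (-2.04 to -1.69), while Lyz2 stood at -0.62 (-0.70 to -0.53). The calcium-binding protein gene S100g stood at -1.65 (-2.06 to -1.29). The 2 measured genes of surfactant turnover were neither higher nor lower. Of the other collectin genes on the list, 4 were in neither table and Colec12 had 4 UMIs in all, so the family was represented by Sftpa1 and Sftpd.

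Outside AT2 barcodes, transcripts of all 4 genes were found at low levels in endothelial and mesenchymal barcodes, and the level differed more between libraries than between classes. Droplet libraries can carry free RNA from broken cells. The low level outside AT2 barcodes is called background here, no expression is read from it, and its source was not tested. It was not alike in all niche classes: Sftpc had 554 CPM in other epithelial, 333 CPM in all endothelial and 123 CPM in mesenchymal barcodes. Over the 1457 niche barcodes that were not AT2, Sftpc summed to 200.3 CPM, Sftpa1 to 32.2 CPM, Sftpb to 22.9 CPM and Sftpd to 5.20 CPM. Over the 1781 distal ones it was 2008 CPM for Sftpc, 304 CPM for Sftpa1, 119 CPM for Sftpb and 64.3 CPM for Sftpd. The log2 ratios of niche over distal were -3.32 (-3.42 to -3.23) for Sftpc, -3.23 (-3.48 to -3.003) for Sftpa1, -2.37 (-2.68 to -2.08) for Sftpb and -3.61 (-4.26 to -3.05) for Sftpd. All 4 passed the 2-fold limit downward, as did 8.78% of 10198 genes in these barcodes, where 4.07% passed it upward. Among 7936 genes with at least 100 UMIs over both libraries, 2 had a lower ratio than Sftpc, and 99.97% had a higher ratio than Sftpd. Without barcodes at 1 to 5% Sftpc the value of Sftpc was -3.94. AT2 barcodes held 1.72% of niche and 22.8% of distal UMIs. Whether this difference has a part in the background was not tested.

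As a percent of the AT2 level of the same library, the background was 0.110% for Sftpc, 0.145% for Sftpa1, 0.227% for Sftpb and 0.0867% for Sftpd in the niche. In the distal library it was 0.881% for Sftpc, 1.15% for Sftpa1, 0.949% for Sftpb and 1.55% for Sftpd. The collectin-rich distal barcode held 89 of the 238 Sftpd and 263 of the 1123 Sftpa1 UMIs of the distal sum. Without barcodes at 1 to 5% Sftpc and those of the airway secretory class, the distal values drew together, at 0.821% for Sftpc, 0.836% for Sftpa1, 0.779% for Sftpb and 0.930% for Sftpd. The niche values were then 0.0667%, 0.0949%, 0.106% and 0.0454% in the same order.

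Endothelial barcodes, which should not make surfactant, gave the background as follows. With those at 1% Sftpc or more left out, 500 niche barcodes had 113 CPM of Sftpc (96.2 to 132) and 1310 distal barcodes had 1898 CPM (1845 to 1952). The log2 ratio was -4.06 (-4.31 to -3.84). The 4 niche endothelial barcodes at 1% or more mattered to this value: they held 314 of the 473 Sftpc UMIs of the class, and with them it was 333 CPM in the niche, 1939 CPM in the distal library and a log2 ratio of -2.54. Mesenchymal barcodes gave 123 CPM in the niche (729 barcodes, none at 1% or more) and 1768 CPM in the distal library (317 barcodes). Immune barcodes, 45 niche and 17 distal ones, gave 94.2 CPM from 11 UMIs in the niche and 1884 CPM from 61 UMIs in the distal library. Alveolar type 1 barcodes gave 320.2 CPM from 7 UMIs in 8 niche barcodes and 2487 CPM from 205 UMIs in 27 distal ones, so each of these 4 classes lay lower in the niche than any of them did in the distal library.

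**Figure D4:**
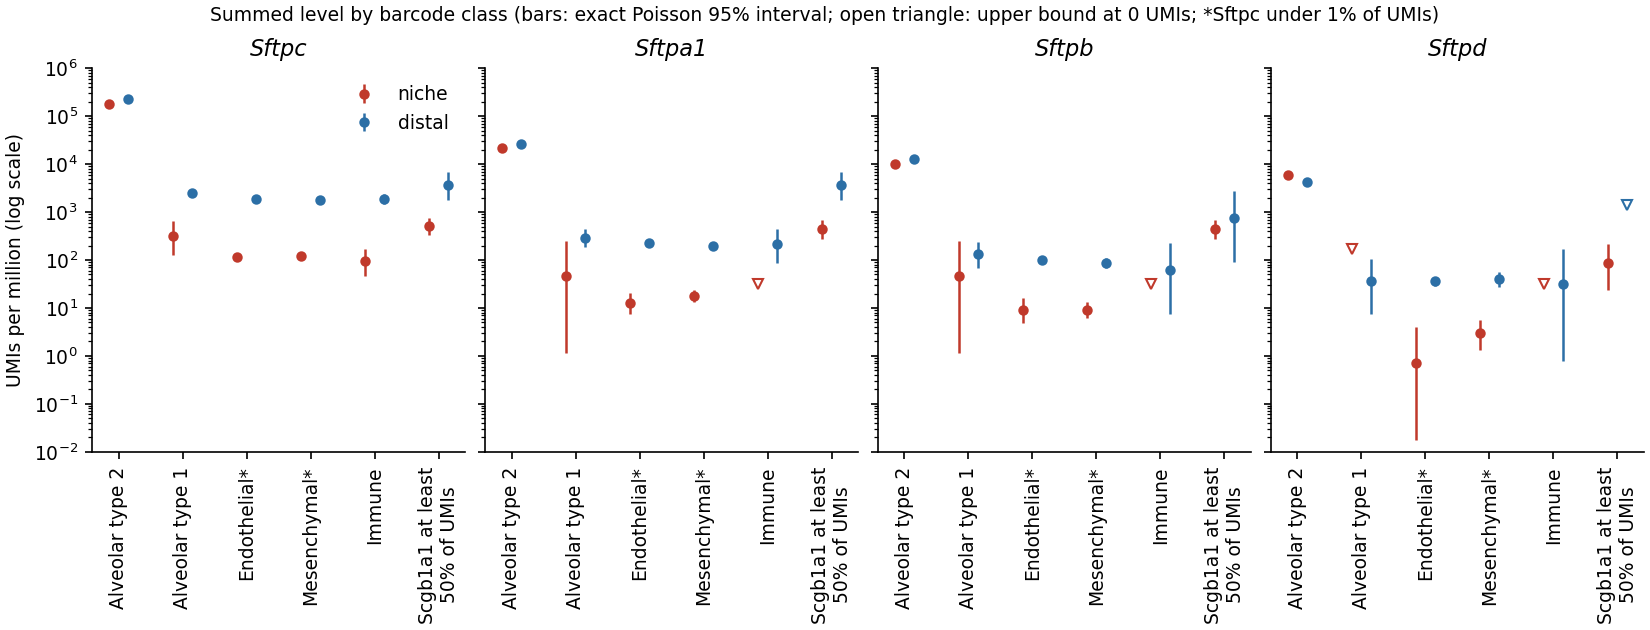
Summed level (CPM, log scale) of each surfactant gene by barcode class, niche left of distal in each pair, with exact 95% Poisson bars and open triangles for the upper bound where 0 UMIs were counted; starred classes leave out barcodes at 1% Sftpc or more. AT2 barcodes lie above the other classes drawn (the 2 distal airway secretory barcodes are not drawn). For Sftpc, endothelial, mesenchymal and immune barcodes of the distal library lie at one higher level than those of the niche library (1898, 1768 and 1884 CPM against 113, 123 and 94.2 CPM). Niche immune barcodes had 0 UMIs of Sftpa1, Sftpb and Sftpd, so only upper bounds are drawn there.

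The share of barcodes with any surfactant UMI followed the same levels. Among these endothelial barcodes Sftpc was detected in 24.4% in the niche (median 2359 UMIs per barcode) and in 95.6% in the distal library (median 1723 UMIs). Thinned to 1200 UMIs per barcode, the shares were 12.5% in the niche (500 barcodes) and 89.7% in the distal library (1015 barcodes, with 295 too shallow). In mesenchymal barcodes the thinned shares were 12.3% in niche and 87.7% in distal barcodes. For Sftpd they were 0.157% and 4.48% in endothelial barcodes. Shares at these levels are called background as above, and no expression is read from them.

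The UMIs of the distal background went up with the depth of the barcode, while the level per UMI did not. In 4 nearly equal groups of the 1310 distal endothelial barcodes by total UMIs, Sftpc averaged 2.29, 2.78, 3.97 and 6.02 UMIs per barcode from the shallowest to the deepest group. As a level this was 2181 CPM in the shallowest group and 1799 CPM in the deepest, with 17 UMIs as the highest count in any barcode. In the niche the 4 groups held 45, 21, 34 and 59 Sftpc UMIs in all, or 230.1, 81.4, 98.4 and 97.1 CPM, so the shallowest group stood above the others. The highest count of a niche barcode was 14.

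The mixture of the 4 genes in the background was that of AT2 barcodes in the distal library within counting error. Distal endothelial barcodes under 1% Sftpc had 84.0% Sftpc, 10.003% Sftpa1, 4.41% Sftpb and 1.58% Sftpd among 5868 UMIs of the 4 genes, against 84.1%, 9.74%, 4.63% and 1.53% in distal AT2 barcodes. The intervals of the endothelial shares held the AT2 value for each gene (Sftpd 1.28 to 1.94%). Niche endothelial barcodes had 191 such UMIs, with 83.2% Sftpc, 9.42% Sftpa1, 6.81% Sftpb and 0.524% Sftpd (0.0133 to 2.88%). Niche mesenchymal barcodes had 465, of which 80.2% were Sftpc, 11.8% Sftpa1, 6.02% Sftpb and 1.94% Sftpd (0.889 to 3.64%). Both Sftpd intervals held the niche AT2 share of 2.72% and the distal AT2 share of 1.53%. Over all 1431 niche barcodes under 1% Sftpc that were neither airway secretory nor rich in the club cell gene Scgb1a1, Sftpd took 1.46% of 754 UMIs (0.730 to 2.60%). That interval held the distal AT2 share and not the niche one, whose own interval (2.50 to 2.96%) overlapped it. Sftpc took 79.8% (76.8 to 82.65%), which left out the distal AT2 share and held the niche one at its edge. Sftpa1 took 12.5% (10.2 to 15.04%), above both AT2 shares. Sftpb took 6.23% (4.62 to 8.203%), which held the distal AT2 share and left out the niche one. These 2 AT2 shares were close (4.63% and 4.59%), and the niche one's own interval (4.30 to 4.89%) overlapped that of the other barcodes. Neither AT2 mixture lay within the intervals of all 4 genes, in a set put together after values were seen.

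Barcodes dominated by Scgb1a1, the secretoglobin of club cells, had another mixture. In 16 niche barcodes and 1 distal barcode at least 50% of the UMIs came from Scgb1a1, a set chosen after its values were seen. The 16 held 24 UMIs of Sftpc, 21 of Sftpa1, 21 of Sftpb and 4 of Sftpd in 47039 UMIs. At the level of niche endothelial barcodes under 1% Sftpc they would hold 5.32 of Sftpc, 0.602 of Sftpa1, 0.435 of Sftpb and 0.0334 of Sftpd. At the level of all niche endothelial barcodes it would be 15.7 of Sftpc, 2.12 of Sftpa1, 1.16 of Sftpb and 0.365 of Sftpd. Sftpa1 and Sftpb each took 30% of the 4-gene UMIs (19.6 to 42.1%), against 10.04% and 4.59% in niche AT2 barcodes. The distal barcode held 10 UMIs of Sftpc, 10 of Sftpa1, 2 of Sftpb and 0 of Sftpd. These niche barcodes had few genes (138 to 595, median 339.5), at most 6 Malat1 UMIs and at most 3 of the 10 AT2 markers, and whether they were whole cells was not tested. By class, 4 of the 16 were airway secretory and 12 had no class.

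**Figure D5:**
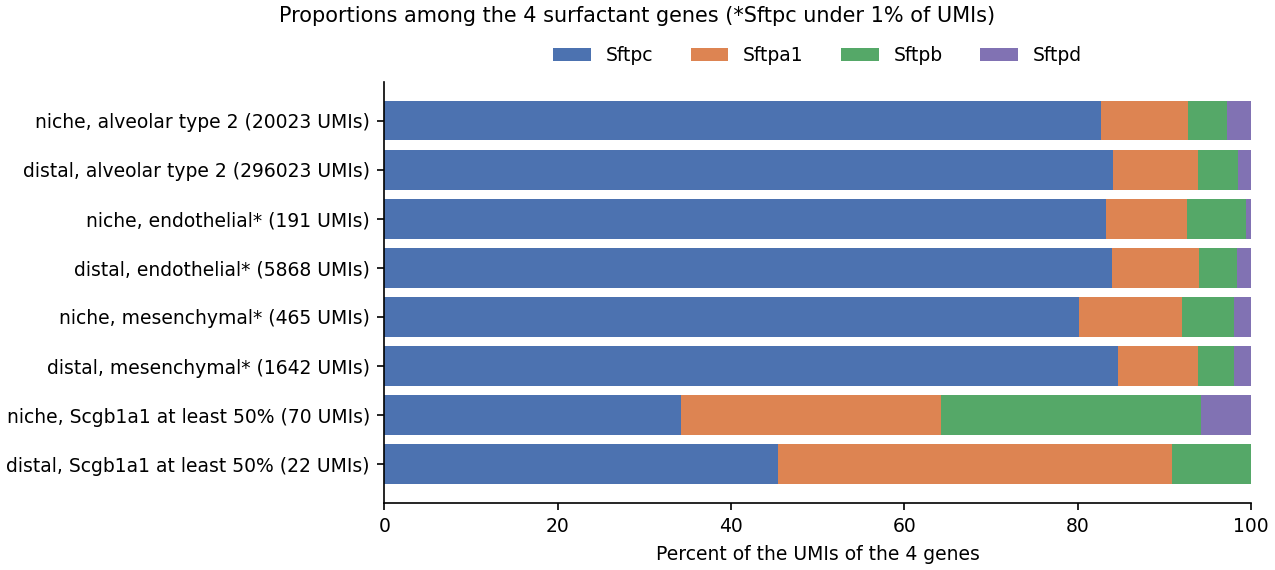
Percent of the UMIs of the 4 surfactant genes taken by each gene, niche above distal for each kind of barcode, with the UMIs behind each bar in brackets; starred classes leave out barcodes at 1% Sftpc or more. The distal AT2, endothelial and mesenchymal bars have nearly one mixture (Sftpc 84.1%, 84.0% and 84.7%), and the Scgb1a1-rich bars have more Sftpa1 and Sftpb at few UMIs.

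Airway secretory barcodes chosen by markers were few. In 9 niche barcodes of this class there were 4 UMIs of Sftpc, 10 of Sftpa1, 16 of Sftpb and 1 of Sftpd, and 4 of these barcodes also belong to the Scgb1a1-rich set. Of the 2 distal barcodes, 1 was the collectin-rich one, whose airway label is uncertain as given above. The other held 5 UMIs of Sftpc, 2 of Sftpa1, 1 of Sftpb and 2 of Sftpd. Their summed levels of 29566 CPM for Sftpa1 and 10153 CPM for Sftpd lay above those of distal AT2 barcodes, and 263 of the 265 Sftpa1 and 89 of the 91 Sftpd UMIs came from the collectin-rich barcode. In the 45 other epithelial niche barcodes Sftpb reached 28 UMIs, of which 26 came from the single barcode near the 5% limit.

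The genes whose levels ran most like those of the 4 members were sought over 12 groups of library and cell class with at least 10 barcodes each, among 9924 genes, by Pearson correlation of log2(CPM + 10) with the members' mean profile. The closest was Chil1, a chitinase-like secreted protein gene, at 0.97, followed by S100g, Lamp3 and the chemokine gene Cxcl15 at 0.96. Atp11a at 0.96, the phosphate transporter gene Slc34a2 at 0.95, and Pi4k2b, Ank3, Lgi3 and Lyz1 at 0.94 completed the first 10. The members themselves reached 0.99, but each is part of the mean profile, so a high value was set in advance. The AT2 groups were also chosen by Sftpc, a member, which favours genes high in AT2 barcodes. The groups share libraries and their background, so these values describe likeness over 12 points only. In distal endothelial barcodes 8 of these 10 genes stood at 0.610 to 1.48% of their AT2 level, close to the 0.804 to 0.873% of the 4 members. The exceptions were Pi4k2b at 3.54% and Atp11a at 17.8%, and Atp11a also stood at 13.1% in niche endothelial barcodes.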

How the data were processed

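The authors deposited 1 table of raw UMI counts per gene and cell barcode for each library, with no normalization in the values. The chemistry was Chromium Single Cell 3′, per the labels' protocols. The tools were Cell Ranger 2.1.1 and R 3.4.1 with the mm10 build, per the submitters' processing notes. Filters on the deposited barcodes are not given in the sources used here. Listed genes had at least 10 UMIs in all niche barcodes and at least 12 in all distal barcodes, and absence from a table was not taken as 0.

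No barcode was removed and no cells were clustered. Counts were summed over barcodes and scaled per 1000000 UMIs. Ratios added 0.5 UMI to each sum, and their intervals are exact 95% conditional binomial intervals without it. Levels have exact Poisson and shares exact Clopper-Pearson 95% intervals. UMIs are molecules, and all intervals cover counting error only. Cells are not replicates, so no p-value was computed. Other barcodes took the class with the largest share of its markers detected, with at least 3 markers and a lead of 0.1, and otherwise no class (117 niche and 97 distal barcodes). At this lead, 69 niche and 46 distal barcodes lay within 0.05 of the limit. Marker lists held 10 or 12 genes, of which 10 of 12 immune markers were in the niche table and 5 of 12 in the distal table, and 2 and 3 of 10 ciliated markers. Shares of barcodes with a UMI were also computed for barcodes thinned to 1200 UMIs, by the exact chance of keeping at least 1 UMI. Named genes were the members, the 10 genes most like them with at least 50 UMIs, the 3 highest and 3 lowest listed genes with at least 30 UMIs, and listed processing and regulator genes. Pdia4, Manf, Stat3 and Dnajb9 were named outside this rule, as the rest of the counted genes, and Ddit3, Atf4 and Xbp1 after their values were seen. The members, lists and markers were chosen with earlier results of these data known, and the motif letters with the sequences in view. Promoter windows are from RefSeq (GRCm38.p6), gene positions from the GENCODE annotation of the same build, and 2 of the 4 members had a window in the table used. Python 3.11.15, numpy 2.4.6, scipy 1.17.1, pandas 2.3.3 and matplotlib 3.10.9 were used. The log2 ratio intervals and the chance of keeping a UMI after thinning were tested on simulated counts. Alternatives changed the Sftpc limit, marker choice, denominator, gene minimum, barcode weighting and class rule.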

Additional observations from a re-analysis of the deposited data

Results flagged for a closer look

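Sftpd had opposite directions in AT2 barcodes and in the other barcodes. Its log2 ratio of niche over distal was 0.53 in AT2 barcodes and -3.61 in the other barcodes, while Sftpc, Sftpa1 and Sftpb were lower in the niche in both. The level in the other barcodes is called background here, its source was not tested, and no expression is read from it. The ratio in the other barcodes rests on 27 niche and 238 distal Sftpd UMIs, 89 of the distal ones from the collectin-rich barcode. With a 1% Sftpc limit the ratio in other barcodes was -3.72. The difference between the AT2 and the other barcodes was not tested, because each library was measured 1 time.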

How the results depend on the processing

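No log2 ratio of a surfactant gene changed sign under any alternative listed here. Of the alternative values of the main results, 80 stayed within the main value's counting interval (counts within 1.5 times) and 36 moved out of it. In AT2 barcodes the log2 ratios with a 2% Sftpc limit were -0.49 for Sftpc, -0.44 for Sftpa1, -0.45 for Sftpb and 0.33 for Sftpd. That of Sftpc was -0.27 with a 10% limit, -0.36 with barcodes chosen by 5 other markers, -0.29 as the mean of barcode shares, -0.26 without barcodes with 3 markers of another class, and -0.42 per UMI outside the 4 genes. That of Sftpa1 was -0.33 without barcodes with 3 markers of another class and -0.35 per UMI outside the 4 genes. Without 1 niche barcode, each in turn, Sftpc ran from -0.38 to -0.26 and Sftpa1 from -0.34 to -0.16. In other barcodes Sftpc was -3.92 with a 2% limit, -3.94 with a 1% limit and -3.94 without barcodes with 3 AT2 markers, and Sftpb was -2.82, -2.83 and -2.86 in the same settings. Sftpa1 was -3.58 in barcodes with at least 1000 genes and -2.72 as the mean of barcode shares, where Sftpd was -3.02. The niche endothelial Sftpc level was 0.0621% of the AT2 level without barcodes at 1% or more, against 0.183% with them. Among 4-gene UMIs of other barcodes with at least 1000 genes, Sftpc took 79.4% in niche and 79.3% in distal barcodes, and Sftpa1 took 10.6% and 13.1%, against 76.9% and 80.5% for Sftpc and 12.3% and 12.2% for Sftpa1 over all other barcodes, so the order of the libraries turned for both. In distal other barcodes with a 1% limit the shares were 83.9% Sftpc, 9.92% Sftpa1 and 1.76% Sftpd, and without airway barcodes as well 84.0% Sftpc, 9.91% Sftpa1 and 1.74% Sftpd. The order also turned for Sftpd with the 1% limit, at 1.801% in niche and 1.76% in distal barcodes, against 1.996% and 2.58%. Without airway barcodes Sftpb took 6.86% in the niche. The cause of each shift was not tested, beyond the barcodes left out in each setting.

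No paired analysis was possible because each group had 1 library. Added after seeing the data were the settings that leave out single niche barcodes, endothelial barcodes at 1% Sftpc or more, both the barcodes at 1 to 5% Sftpc and airway barcodes, and, for correlations, AT2 barcodes under the median total. Of the alternative Spearman correlations, 21 changed by at most 0.1 and 15 by more, 10 of these in the distal library. Over the 8 deepest niche barcodes Sftpa1 with Sftpd was 0, Sftpb with Sftpd 0.048 and Sftpc with Sftpd -0.62. The 16 niche AT2 barcodes with 545 Sftpd UMIs limit the AT2 comparison, and differences between mice, sorts or libraries cannot be told apart from those between niche and distal cells.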
